A study of Mus musculus with 24 samples.

Results

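Insulin-like growth factor 1 (Igf1), its receptor (Igf1r), the growth hormone receptor (Ghr) and the IGF binding proteins Igfbp2, Igfbp3, Igfbp4, Igfbp5, Igfbp6 and Igfbp7 were followed through inguinal white fat, the subcutaneous pad of the groin. These 9 genes were chosen by name and matched by Ensembl gene identifier to the 41388 genes of the deposited count tables, in which each was found once. All 9 were among the 19717 genes that passed the filter on low counts. The mice were males with both copies of Nr3c2 floxed, and Nr3c2 encodes the mineralocorticoid receptor. Control mice had no Cre, and FMRKO mice carried the Adipoq-Cre transgene, which is active in fat cells, so other cells of the pad keep the floxed gene. Each genotype was kept on chow, on a high fat diet (HFD) or under corticosterone, the main glucocorticoid of the mouse, with 4 RNA-seq libraries in each of the 6 groups and 24 in all. All groups therefore share the floxed allele, and Cre mice without it were not analysed here. The labels give no age, corticosterone dose, diet composition, treatment length or vehicle group, and chow served as the reference for HFD and corticosterone alike.

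Growth hormone acts through Ghr, which signals by JAK2 and STAT5 and raises transcription of Igf1. IGF1 then acts on Igf1r, a receptor tyrosine kinase related to the insulin receptor. Binding proteins hold IGF1 in blood and tissue, lengthening its stay and limiting its access to the receptor, and proteases release it from them. Most circulating IGF1 comes from the liver, while fat makes its own and is a site of both growth hormone and IGF1 action. Glucocorticoids are known to oppose growth hormone and IGF1 action in several tissues.

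Some features of the libraries bear on the values below. Total counts ran from 17925109 to 40427675 per library, and each member other than Igfbp2 had at least 275 counts in every library, so the spread between libraries and not counting set the precision. Igfbp2 had 0 to 278 counts. The lymph node of the groin lies inside this pad, and 6 libraries were rich in lymphocyte markers (chow FMRKO replicates 1 and 3, HFD control replicates 1 and 4, and HFD FMRKO replicates 1 and 4). Skeletal muscle markers were high in chow FMRKO replicate 5, HFD control replicate 3 and corticosterone control replicate 2. No adipocyte marker of the 10 listed was at 0 in any library. Titles of the 8 chow libraries are numbered in a form that the other 16 lack, and if that form marks a batch, it cannot be told apart from the treatments. Nr3c2 itself was 17.6 to 28.7 CPM (read counts scaled to library size) in controls on chow, with 11.3 to 25.8 for FMRKO, 18.5 to 25.0 against 12.7 to 15.7 on HFD, and 14.1 to 18.4 against 7.7 to 12.2 under corticosterone. FMRKO libraries thus lay below all controls on HFD and under corticosterone and overlapped them on chow. Averaged over the conditions, Nr3c2 differed by -0.49 ± 0.11 (log2, SE). In edgeR's quasi-likelihood test the unadjusted p was 0.000342 and the adjusted p 0.287. Nr3c2 was therefore lower in FMRKO libraries, without passing the threshold over all genes in whole tissue. The part of cells without Cre in its level was not tested.

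The promoters of 3 genes are printed first because these are the binding proteins that passed the test under corticosterone against chow in both genotypes: Igfbp3 and Igfbp4 rose, and Igfbp7 fell. Each is the 250 bases before the RefSeq start on GRCm38.p6, 5′ to 3′ on the gene's strand, and each ends at the base next to the gene start given in the deposited tables. Capitals mark GGGCGG, known as a GC box, or the TATA box letters, spelled TATAAA, each on either strand.
Igfbp3, chr11:7213924-7214173, minus strand: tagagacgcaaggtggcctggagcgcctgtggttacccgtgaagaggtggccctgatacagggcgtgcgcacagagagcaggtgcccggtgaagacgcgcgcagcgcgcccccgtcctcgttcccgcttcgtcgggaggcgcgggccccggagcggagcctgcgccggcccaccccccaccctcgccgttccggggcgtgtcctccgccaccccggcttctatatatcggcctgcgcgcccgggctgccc
Igfbp4, chr11:99040994-99041243, plus strand: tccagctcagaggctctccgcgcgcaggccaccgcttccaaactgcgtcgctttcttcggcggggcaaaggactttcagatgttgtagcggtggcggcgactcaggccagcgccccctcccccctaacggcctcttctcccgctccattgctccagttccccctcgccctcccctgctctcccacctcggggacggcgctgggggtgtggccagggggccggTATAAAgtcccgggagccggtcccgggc
Igfbp7, chr5:77408046-77408295, minus strand: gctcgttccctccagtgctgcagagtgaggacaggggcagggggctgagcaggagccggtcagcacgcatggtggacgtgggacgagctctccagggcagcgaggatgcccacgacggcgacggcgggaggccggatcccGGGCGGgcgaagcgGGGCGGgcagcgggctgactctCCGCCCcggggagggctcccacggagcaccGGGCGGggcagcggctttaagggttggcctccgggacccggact
The Igfbp7 window held 4 GC boxes, beginning 110, 96, 74 and 44 bases before the start, and no TATAAA. The Igfbp4 window held TATAAA 28 bases before the start and no GC box, and the Igfbp3 window held neither exact string. Other spellings of a TATA box were not searched, and the Igfbp3 window does hold the letters tatatat near its end. Of 32851 promoter windows of this length, 32.7% held GGGCGG and 12.4% held TATAAA. The hexamer AGAACA bound by the glucocorticoid receptor, the perfect palindrome of its response element and the STAT5 motif TTCNNNGAA were searched on both strands too, and none of the 3 windows held one. Of all windows 16.1% held the hexamer, 0.00913% the palindrome and 7.02% the STAT5 motif. Windows of all 9 members were in the RefSeq tables, and the upstream Igfbp2 window alone held the hexamer, 206 bases before the start.

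Levels between genes were compared per length, as CPM per kilobase of the exons given in the deposited tables. In chow controls the order was Igfbp7 (360 ± 37.5, mean ± SD, n = 4), Igfbp4 (216 ± 41.2), Igfbp5 (142 ± 79.2), Igfbp6 (119 ± 37.1), Ghr (110 ± 13.7), Igf1 (33.8 ± 3.84), Igf1r (9.88 ± 0.742), Igfbp3 (8.98 ± 5.29) and Igfbp2 (0.645 ± 0.670). Igfbp5 was within its spread of Igfbp4, Igfbp6 and Ghr, Igfbp6 and Ghr were within theirs, and so were Igf1r and Igfbp3. Ghr and the binding proteins other than Igfbp2 and Igfbp3 were thus the more abundant transcripts of the set, and Igf1r was among the scarce ones. Under corticosterone the order in controls was Igfbp4 (321 ± 17.4), Ghr (205 ± 13.5), Igfbp7 (170 ± 8.98), Igfbp5 (168 ± 53.1), Igfbp6 (67.3 ± 6.60), Igfbp3 (47.4 ± 17.0), Igf1 (18.0 ± 4.41), Igf1r (5.52 ± 0.302) and Igfbp2 (0.189 ± 0.219). Igfbp5 was within its spread of Igfbp7 and Ghr there, and Igfbp3 now lay above Igf1. Treated FMRKO mice had Igfbp4 first at 358 ± 20.9, Igfbp7 (207 ± 22.2) and Ghr (205 ± 12.6) level with each other, and Igfbp3 at 63.7 ± 6.35 against Igf1 at 15.5 ± 4.61. On HFD the order in controls was that of chow for the first 3, with Igfbp7 at 198 ± 8.88, Igfbp4 at 137 ± 22.8 and Igfbp5 at 93.0 ± 16.5, followed by Ghr (74.7 ± 18.4), Igfbp6 (57.5 ± 16.7), Igf1 (32.6 ± 8.17), Igfbp3 (8.83 ± 3.0), Igf1r (6.78 ± 1.01) and Igfbp2 (1.77 ± 2.34). FMRKO mice had this HFD order too, from Igfbp7 at 229 ± 17.4 down to Igf1r at 7.07 ± 0.215 and Igfbp2 at 0.477 ± 0.477. In both genotypes Ghr and Igfbp6 were within their spread on HFD, as were Igfbp3 and Igf1r, and in controls so were Igfbp5 and Ghr. On chow FMRKO mice differed in order from controls by Ghr (92.1 ± 16.6) ahead of Igfbp6 (84.7 ± 16.9), within their spread.

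**Figure D1:**
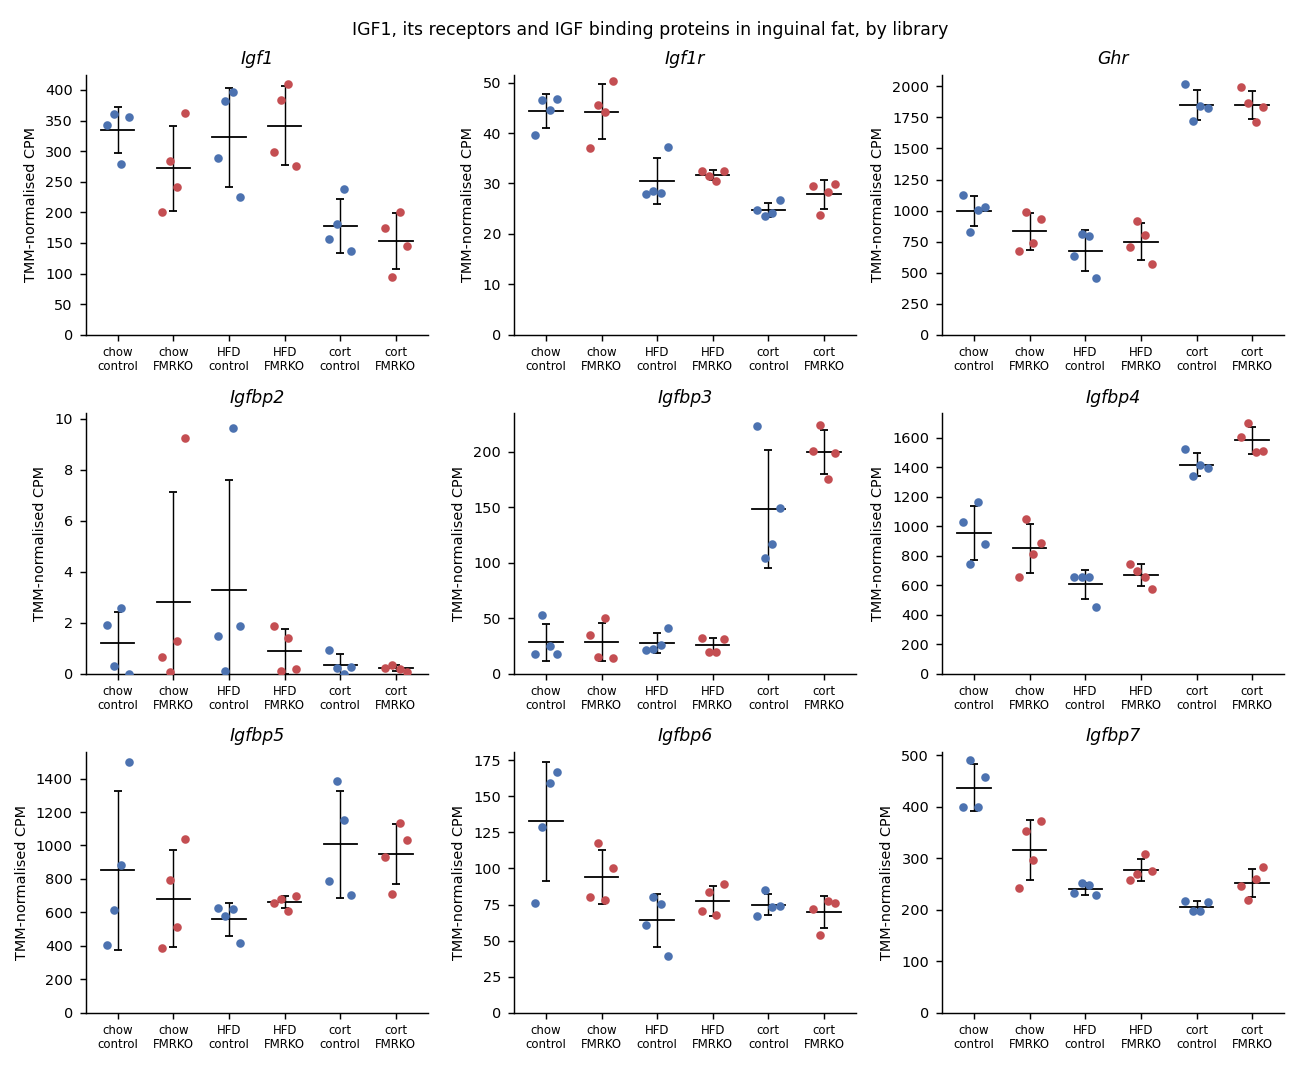
Each panel plots 1 gene in TMM-normalised CPM (linear axis from 0) for the 6 groups of 4 libraries; points are libraries (blue control, red FMRKO), long bars means and whiskers SD. Ghr, Igfbp3 and Igfbp4 are highest in the 8 corticosterone (cort) libraries, Igf1 and Igf1r are low in them, and Igfbp2 lies under 10 CPM throughout.

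Corticosterone against chow moved most of the set in both genotypes. In controls Ghr, Igfbp3 and Igfbp4 rose and Igf1, Igf1r, Igfbp6 and Igfbp7 fell, 7 of 9 members past an adjusted p of 0.05 in edgeR's quasi-likelihood test. In FMRKO mice the same 3 rose, and Igf1, Igf1r, Igfbp2 and Igfbp7 fell, again 7 of 9. Ghr, Igfbp3, Igfbp4, Igf1, Igf1r and Igfbp7 were called in both, 6 of the 7 in each list. Of all genes tested 42.9% passed in controls (20.2% higher, 22.7% lower) and 41.1% in FMRKO mice (20.2% higher, 20.9% lower). Groups did not overlap for 6 members in each genotype, against 41.9% and 37.3% of all genes. The median log2 change was -0.83 over the members and -0.12 over all genes in controls, and -0.33 and -0.11 in FMRKO mice.

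Igf1, the ligand, was 343, 361, 279 and 356 CPM in chow controls and 157, 181, 238 and 137 CPM under corticosterone. All 4 treated libraries lay below all 4 chow libraries, a change of -0.91 ± 0.23 (log2, SE; adjusted p = 0.00355), 1.88-fold lower. Igf1 in FMRKO mice was 200.2, 284, 241 and 363 CPM on chow and 175, 93.9, 200.1 and 146 CPM under corticosterone. The highest treated library lay just under the lowest chow library, and the change was -0.82 ± 0.23 (adjusted p = 0.00788). Without both the lymph node rich and the muscle rich libraries, which leaves a single chow FMRKO library, it was -0.85 with an adjusted p of 0.0984.

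Igf1r, the receptor for IGF1, was 39.6, 46.5, 44.6 and 46.8 CPM in chow controls and 24.7, 23.5, 24.2 and 26.7 CPM under corticosterone. Its treated libraries spanned little and sat well under every chow library, with a change of -0.84 ± 0.10 (adjusted p = 2.59e-06). Its FMRKO values went from 37.1, 45.5, 44.2 and 50.2 CPM to 29.5, 23.7, 28.3 and 30.0 CPM. This fall of 0.67 ± 0.10 on the log2 scale (adjusted p = 3.96e-05) was also without overlap.

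Ghr, the growth hormone receptor, moved the other way. In controls it was 1122, 826, 1005 and 1032 CPM on chow and 2017, 1722, 1841 and 1829 CPM under corticosterone. The lowest treated library was above the highest chow library, and the change was 0.89 ± 0.17 (adjusted p = 0.000307), 1.86-fold. In FMRKO mice the values were 675, 988, 738 and 933 CPM against 1991, 1870, 1714 and 1832 CPM, a change of 1.15 ± 0.17 (adjusted p = 3.28e-05), 2.22-fold.

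Igfbp3, the main carrier of IGF1 in blood, had the largest change of the set among members with more than 278 counts in a library. It was 17.5, 52.5, 24.5 and 17.9 CPM in chow controls and 223, 104, 117 and 149 CPM under corticosterone. Every treated library was above every chow library, a change of 2.40 ± 0.40 (adjusted p = 8.65e-05), 5.27-fold. Igfbp3 in FMRKO mice was 34.7, 15.0, 50.5 and 13.9 CPM on chow and 201, 224, 175 and 198 CPM under corticosterone, a change of 2.80 ± 0.41 (adjusted p = 2.61e-05), 6.97-fold. The treated FMRKO libraries were tighter than the treated controls, and chow libraries varied several-fold in both genotypes.

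Igfbp4, a binding protein that withholds IGF1 from its receptor until it is cleaved, was 1029, 745, 1164 and 876 CPM in chow controls and 1522, 1338, 1418 and 1394 CPM under corticosterone. It rose by 0.57 ± 0.15 (adjusted p = 0.00441), 1.49-fold, without overlap. Igfbp4 in FMRKO mice went from 653, 1052, 813 and 887 CPM to 1606, 1703, 1507 and 1513 CPM, a change of 0.89 ± 0.15 (adjusted p = 0.000115). With the lymph node rich and muscle rich libraries left out together, this FMRKO change was 0.63 and its adjusted p 0.0601.

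Igfbp7, which binds IGFs only weakly and is abundant in vessel walls and stroma, fell in both genotypes. In chow controls it was 399, 491, 399 and 457 CPM, and under corticosterone 217, 196, 197 and 214 CPM. The change of -1.08 ± 0.11 (adjusted p = 4.28e-07), 2.12-fold lower, had the smallest adjusted p of the set. FMRKO libraries went from 243, 352, 295 and 373 CPM to 246, 219, 259 and 283 CPM. These groups overlapped, and the change was -0.33 ± 0.11 (adjusted p = 0.0238). It was -0.27 without chow FMRKO replicate 2 (adjusted p = 0.0772), -0.23 without chow FMRKO replicate 5 (0.107) and -0.27 without corticosterone FMRKO replicate 2 (0.0677). With the replicate block it was -0.26 (adjusted p = 0.127). That block pairs libraries of a genotype by replicate number across treatments, and the numbers were not found to pair them. On the other strand Polr2b overlaps 85 of the 1213 exon bases of Igfbp7, and without a stated strand setting reads there cannot be told apart.

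Igfbp6, which prefers IGF2, was 75.8, 129, 159 and 167 CPM in chow controls and 67.3, 84.9, 73.2 and 73.8 CPM under corticosterone. It fell by 0.83 ± 0.22 (adjusted p = 0.00486), with chow control replicate 1 inside the treated range. In FMRKO mice it was 80.0, 118, 78.3 and 101 CPM against 72.2, 53.7, 77.6 and 76.2 CPM. The groups did not overlap, yet the change of -0.43 ± 0.22 missed the threshold (adjusted p = 0.122). Igfbp5, the most conserved of the family and a product of stromal and muscle cells, was 405, 615, 886 and 1501 CPM in chow controls and 786, 1386, 1151 and 704 CPM under corticosterone, a change of 0.24 ± 0.32 (adjusted p = 0.572). Its chow libraries spread so widely that a shift of this size was within their error, and the FMRKO change was 0.48 ± 0.32 (adjusted p = 0.242).

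Igfbp2, a product of preadipocytes and of liver, was near the limit of detection. In chow FMRKO mice it was 0.669, 0.0779, 1.29 and 9.27 CPM, and under corticosterone 0.221, 0.353, 0.176 and 0.0714 CPM. A single library, chow FMRKO replicate 5, which is also the library richest in muscle markers, held most of its counts. The change was -3.76 ± 1.46 (adjusted p = 0.0443), and without that library it was -1.75 with an adjusted p of 0.332. In controls, with 0 counts in 1 chow and 1 treated library, the change was -1.75 ± 1.35 (adjusted p = 0.309).

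**Figure D2:**
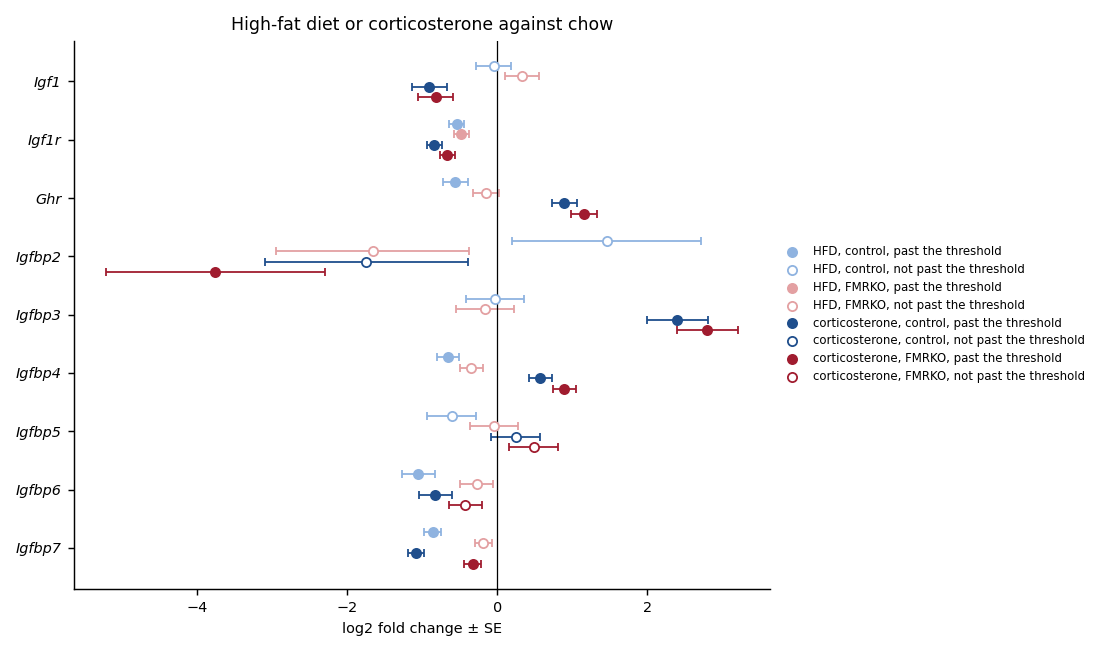
The x axis is the log2 fold change against chow with its SE, and each row a gene; pale symbols are HFD and dark symbols corticosterone (cort), blue controls and red FMRKO, filled where the adjusted p was under 0.05. Ghr and Igfbp4 lie left of 0 on HFD and right of 0 under corticosterone, past the threshold in all but HFD in FMRKO mice, and Igf1r lies left of 0 in all 4 comparisons.

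Stromal and endothelial markers moved in the same comparisons. Of 12 preadipocyte and stromal fibroblast markers, 10 fell and 0 rose in corticosterone controls (7 and 0 in FMRKO mice), and their summed level was 6067 to 17377 CPM in chow controls and 2558 to 5753 CPM in treated controls. Of 10 endothelial markers 9 fell in controls and 5 fell and 1 rose in FMRKO mice, with sums of 941 to 1171 CPM on chow and 559 to 649 CPM under corticosterone in controls. Of 10 adipocyte markers 5 rose and 1 fell in each genotype. Of 11 macrophage markers 1 rose in controls and 8 rose in FMRKO mice, with none lower in either. No stromal or endothelial marker was at 0 in any library. In bulk tissue, fewer cells of a type and less RNA per cell cannot be told apart. Igf1, Igf1r and Igfbp7 fell past the threshold alongside the stromal markers in both genotypes, and Igfbp6 did so in controls only. Ghr, Igfbp3 and Igfbp4 rose in both. The part of these cell types in the member changes under corticosterone was not tested. In FMRKO mice 9 of 15 lymphocyte and 9 of 11 muscle markers were also lower than on chow, with the high levels in the chow libraries named above. Without the lymph node rich libraries the FMRKO changes were -1.02 for Igf1, 1.00 for Ghr, 3.83 for Igfbp3, 0.76 for Igfbp4 and -0.48 for Igfbp7. Without the muscle rich libraries they were -0.67, 1.19, 2.54, 0.90 and -0.26, and of these only the last, Igfbp7, missed the threshold (adjusted p = 0.0920).

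The make-up of the binding proteins changed with the treatment. Summed per length over the 6 genes, their level was 846 ± 118 CPM per kilobase in chow controls (mean ± SD, n = 4), 496 ± 59.0 on HFD and 774 ± 35.2 under corticosterone. In FMRKO mice the sums were 662 ± 138, 568 ± 5.21 and 851 ± 33.5. Igfbp7 made up 43.0% ± 6.39 of the sum in chow controls, 40.2% ± 3.90 on HFD and 22.0% ± 1.92 under corticosterone. Igfbp4 made up 25.9% ± 6.39, 27.5% ± 1.74 and 41.6% ± 2.89 in the same groups. Igfbp3 was 1.08% ± 0.672, 1.86% ± 0.919 and 6.15% ± 2.20. Igfbp4 thus took the first place that Igfbp7 held on chow and HFD. In FMRKO mice Igfbp7 was 39.5%, 40.2% and 24.3% and Igfbp4 29.3%, 26.6% and 42.2% on chow, HFD and corticosterone. Igf1, set against the same sum, was 4.06% ± 0.798 in chow controls, 6.51% ± 1.00 on HFD and 2.32% ± 0.532 under corticosterone, and 4.14%, 6.07% and 1.81% in FMRKO mice. These shares describe the per-gene results and were given no test of their own.

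**Figure D3:**
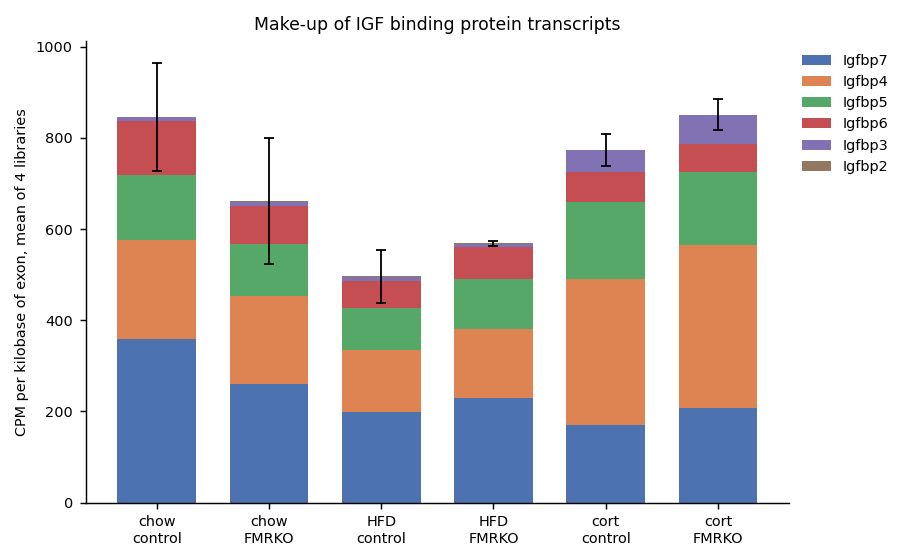
Bars stack the mean CPM per kilobase of exon of the 6 binding proteins in each group (n = 4 libraries; whiskers are the SD of the sum, cort is corticosterone). Igfbp7 is the largest segment on chow and HFD and Igfbp4 under corticosterone, the Igfbp3 segment is visible mainly in the corticosterone bars, and Igfbp2 is too thin to see.

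HFD against chow lowered 5 of 9 members in controls: Igf1r, Ghr, Igfbp4, Igfbp6 and Igfbp7. In FMRKO mice 1 of 9 passed, Igf1r. For the difference of the HFD effect between genotypes 0 of 9 passed (smallest adjusted p 0.481), so these counts do not show that the genotypes differ. No member rose past the threshold in either genotype. Of all genes tested 29.2% passed in controls (15.3% higher, 13.9% lower) and 24.4% in FMRKO mice (15.2% higher, 9.18% lower). Groups did not overlap for 4 members in controls, against 23.2% of all genes, and for 1 in FMRKO mice, against 22.4%. The median change over the members was -0.56 in controls, where the median of all genes was 0.01.

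Igf1r was 28.0, 28.4, 28.0 and 37.2 CPM in HFD controls and 32.5, 31.4, 30.5 and 32.5 CPM in HFD FMRKO mice. Against the chow values given above it fell by 0.54 ± 0.10 (adjusted p = 0.000432) and by 0.48 ± 0.10 (adjusted p = 0.00154), without overlap in either genotype. Igf1r is the one member called against chow under both treatments and in both genotypes. Igfbp7 was 233, 251, 247 and 229 CPM in HFD controls, all below chow, a change of -0.86 ± 0.11 (adjusted p = 1.06e-05), 1.82-fold lower. In HFD FMRKO mice Igfbp7 was 258, 269, 307 and 274 CPM, a change of -0.19 ± 0.11 (adjusted p = 0.244).

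Igfbp6 was 61.1, 80.2, 75.4 and 38.9 CPM in HFD controls, a change of -1.05 ± 0.22 (adjusted p = 0.00127), and -0.28 ± 0.22 in FMRKO mice (adjusted p = 0.399). Igfbp4 was 657, 654, 657 and 455 CPM in HFD controls, a change of -0.66 ± 0.15 (adjusted p = 0.00265). In HFD FMRKO mice Igfbp4 was 747, 698, 655 and 574 CPM, a change of -0.35 ± 0.15 (adjusted p = 0.0999). The FMRKO value passed in 14 of the 34 other settings, among them DESeq2 (-0.37, adjusted p = 0.0392) and the fit without the lymph node rich libraries (-0.50, 0.0429). Ghr was 637, 815, 795 and 458 CPM in HFD controls, a change of -0.56 ± 0.17 (adjusted p = 0.0176), and in FMRKO mice -0.15 ± 0.17 (0.561).

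Lymphocyte markers moved with this comparison in controls: 14 of 15 rose, and their summed level was 16.2 to 21.4 CPM on chow and 35.3 to 937 CPM on HFD. Of 12 stromal markers 2 fell and 0 rose (median -0.42), with sums of 6067 to 17377 CPM on chow and 4986 to 9133 CPM on HFD. Of 10 adipocyte markers 3 rose and 1 fell, and of 10 endothelial markers 3 rose and 0 fell. In FMRKO mice 8 of 11 muscle markers fell and 0 rose, and 5 of 10 endothelial markers rose and 0 fell. Of 15 lymphocyte markers 0 passed there, beside the chow FMRKO libraries named above as rich in lymphocyte or muscle markers. The part of stromal, adipocyte and endothelial cells in the member changes was not tested in either genotype. Leaving out the lymph node rich libraries, the control changes were -0.62 for Igf1r, -0.51 for Igfbp4, -0.73 for Igfbp6 and -0.77 for Igfbp7, each still past the threshold, and -0.27 for Ghr with an adjusted p of 0.109. Ghr was also -0.57 with only the compared groups in the fit (adjusted p = 0.0745) and -0.60 with the replicate block (0.0566). With the muscle rich libraries left out as well, which leaves a single HFD control library, Igfbp4 was -0.53 (adjusted p = 0.0943) and Igfbp6 -0.70 (0.169), while Igf1r and Igfbp7 kept their calls.

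Igf1 and Igfbp3 did not follow. Igf1 was 288, 381, 397 and 225 CPM in HFD controls and 299, 383, 409 and 276 CPM in HFD FMRKO mice, spanning the chow values, with changes of -0.05 ± 0.23 (adjusted p = 0.886) and 0.33 ± 0.23 (0.33). Igfbp3 was 21.4, 21.9, 25.8 and 41.4 CPM and 31.9, 19.4, 19.6 and 31.2 CPM, changes of -0.03 ± 0.39 and -0.16 ± 0.39. Igfbp5 was 626, 576, 619 and 414 CPM in HFD controls, a change of -0.61 ± 0.33 (adjusted p = 0.166), which passed without chow control replicate 1 (-0.84, adjusted p = 0.0475). Igfbp2 changed by 1.46 ± 1.26 and -1.66 ± 1.28 and passed in neither genotype.

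Corticosterone was also set against HFD, a comparison that shares its libraries with both above and has no chow library in it. Ghr rose by 1.45 ± 0.17 in controls (adjusted p = 6.34e-06) and 1.30 ± 0.17 in FMRKO mice (2.76e-05), Igfbp3 by 2.42 ± 0.40 (0.000225) and 2.96 ± 0.41 (4.76e-05), and Igfbp4 by 1.23 ± 0.15 (9.71e-06) and 1.24 ± 0.15 (1.18e-05). Corticosterone libraries lay above HFD libraries without overlap for all 3 genes in both genotypes. Igf1 fell by 0.86 ± 0.23 in controls (adjusted p = 0.0103) and 1.15 ± 0.23 in FMRKO mice (0.00165). The control value was -0.70 without corticosterone control replicate 4 (adjusted p = 0.0501) and -0.71 without the muscle rich libraries (0.0558). In all, 5 of 9 members passed in controls (3 higher, 2 lower), where 24.9% of all genes did (10.6% higher, 14.2% lower). In FMRKO mice 4 of 9 passed (3 higher, 1 lower), where 15.8% did (7.27% higher, 8.49% lower). Groups did not overlap for 6 members in each genotype, against 27.8% and 24.9% of all genes. The fifth in controls, Igf1r (-0.30 ± 0.10, adjusted p = 0.0369), passed in 10 of the 34 other settings and missed in 24, among them only the groups compared (adjusted p = 0.0982) and the fit without HFD control replicate 4 (-0.13, 0.382). Igfbp5 was above every HFD library in both genotypes, with changes of 0.85 ± 0.33 (adjusted p = 0.0616) and 0.53 ± 0.32 (0.292). The control value passed in 14 of the 34 other settings, among them DESeq2 (0.86, adjusted p = 0.0260), and the FMRKO value in 1, only the groups compared (0.54, 0.0280). Lymphocyte markers were lower in corticosterone controls for 15 of 15, and without the lymph node rich libraries the changes of Ghr, Igfbp3, Igfbp4 and Igf1 in controls were 1.22, 2.66, 1.13 and -1.11, all past the threshold. Of 12 stromal markers 6 fell and 0 rose in controls (median -0.71) and 5 fell and 0 rose in FMRKO mice (median -0.80). Of 10 endothelial markers 9 fell in each genotype, with sums in controls of 1058 to 1348 CPM on HFD and 559 to 649 CPM under corticosterone. The part of these cell types in the member changes was not tested.

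FMRKO against control gave 0 of 9 members past the threshold on chow, on HFD, under corticosterone and averaged over the 3 in edgeR's test. Few genes of any kind passed, 0.0101%, 0.0101%, 0.00507% and 0.0355% of those tested. At an unadjusted p under 0.05 there were 2 members on chow (11.9% of all genes), 0 on HFD (3.96%), 1 under corticosterone (4.28%) and 0 for the average (6.66%). DESeq2 called 1 on chow, Igfbp7, and 0 in the other 3. The spread limits what could be seen: the SE of an FMRKO difference ranged from 0.10 for Igf1r to 0.39 for Igfbp3 on the log2 scale, leaving Igfbp2 aside. The replicate block here pairs control and FMRKO libraries by number in every condition, though same-numbered libraries deviated together in every pair on HFD only. With this block the SE on HFD ran from 0.08 for Igf1r to 0.35 for Igfbp3. No member passed there either, and Igfbp7 was 0.21 ± 0.09 (unadjusted p = 0.0336, adjusted p = 1.00).

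Igfbp7 was the member with the smallest unadjusted p. On chow all 4 FMRKO libraries lay below all 4 controls (-0.47 ± 0.11, unadjusted p = 0.000416, adjusted p = 0.285), as the values above show. On HFD all 4 lay above the controls (0.21 ± 0.11, adjusted p = 1.00), and under corticosterone again all 4 lay above (0.29 ± 0.11, unadjusted p = 0.0169, adjusted p = 1.00). Groups that do not overlap made up 3.2%, 2.37% and 4.92% of all genes in these comparisons. The difference of the FMRKO effect between corticosterone and chow was 0.76 ± 0.16 (adjusted p = 0.418), and between HFD and chow 0.68 ± 0.16 (adjusted p = 0.481). Neither passed in edgeR, where 0% of genes did, and DESeq2 gave 0.72 (adjusted p = 0.0229) and 0.64 (adjusted p = 0.0696). At an unadjusted p under 0.05 the edgeR difference from chow held 1 member under corticosterone, Igfbp7 (5.94% of all genes), and 2 on HFD, Igfbp6 and Igfbp7 (9.83%). Without the lymph node rich libraries the chow difference was -0.26 (edgeR adjusted p = 0.774). That fit lacks chow FMRKO replicates 1 and 3, so fewer FMRKO libraries carry the difference. Stromal markers summed to 6067 to 17377 CPM in chow controls and 5643 to 9458 CPM in chow FMRKO mice, with 0 of 12 past the threshold and a median change of -0.36. Endothelial markers summed to 941 to 1171 CPM and 697 to 931 CPM. Their part in the Igfbp7 difference was not tested.

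Igfbp6 was the other member with an unadjusted p under 0.05 on chow (-0.49 ± 0.22, unadjusted p = 0.035, adjusted p = 0.376), and its FMRKO effect differed between HFD and chow by 0.78 ± 0.31 (adjusted p = 0.481). Averaged over the 3 conditions the FMRKO effect was -0.14 ± 0.13 for Igf1, 0.08 ± 0.06 for Igf1r and -0.04 ± 0.10 for Ghr. For the binding proteins it ran from -0.10 ± 0.13 for Igfbp6 to 0.11 ± 0.22 for Igfbp3, apart from Igfbp2 at -0.49 ± 0.77. None of these averages passed the threshold.

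**Figure D4:**
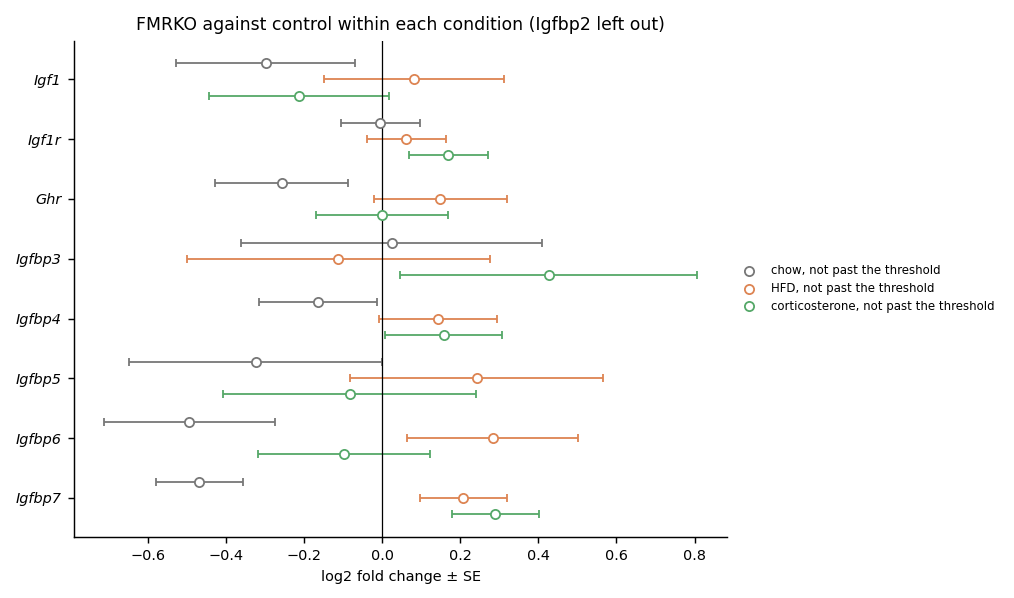
Symbols give the FMRKO minus control difference (x axis, log2, with SE) for 8 members (Igfbp2 is left out because of its large SE), in grey on chow, orange on HFD and green under corticosterone. All symbols are open because none passed the threshold, and Igfbp7 lies left of 0 on chow and right of 0 in the other 2 conditions.

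Around these genes, a list of 49 other genes of growth hormone and IGF signalling was read from the same fit, and 42 of them were tested. The growth hormone gene Gh, Ghrh, Ghsr, Igfbp1, Igfbpl1, Irs4 and Igf2bp1 did not pass the filter on low counts. Under corticosterone 7 rose and 9 fell in controls, and 10 rose and 6 fell in FMRKO mice, beside 42.9% and 41.1% of all genes past the threshold. On HFD 6 rose and 12 fell in controls, and 7 rose and 8 fell in FMRKO mice, beside 29.2% and 24.4% of all genes. Over the other settings the number called on HFD was 11 to 21 for controls, with 6 to 20 for FMRKO, and under corticosterone 13 to 18 and 11 to 18. In the 4 FMRKO comparisons 0 passed. The list's median change was -0.06 and 0.01 under corticosterone and -0.24 and -0.11 on HFD, in controls and FMRKO mice.

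Among ligands and receptors, Igf2, the second IGF ligand, fell under corticosterone by 0.96 ± 0.27 in controls (adjusted p = 0.00653) and 0.80 ± 0.27 in FMRKO mice (0.0205), at no more than 21.8 CPM in any library. The insulin receptor Insr fell on HFD by 0.77 ± 0.17 (adjusted p = 0.00152) and 0.51 ± 0.17 (0.0282) and changed by -0.13 and 0.00 under corticosterone (adjusted p of 0.54 and 0.998). Igf2r, which clears IGF2, passed in none of these 4 comparisons. The prolactin receptor Prlr fell on HFD in FMRKO mice by 1.60 ± 0.39 (adjusted p = 0.00475) and was -0.78 ± 0.38 in controls (0.133). Its FMRKO libraries ran from 6.36 to 31.4 CPM on chow (mean 15.3) and from 4.01 to 7.05 CPM on HFD, so these groups overlapped.

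Of the feedback inhibitors of growth hormone signalling named here, Cish and Socs2 fell under corticosterone and Socs3 did not pass. Cish was 13.2, 29.0, 5.96 and 5.77 CPM in chow controls and 1.43, 1.29, 1.49 and 0.941 CPM in treated controls, a change of -3.38 ± 0.63 (adjusted p = 0.000227). In FMRKO mice Cish changed by -3.27 ± 0.61 (adjusted p = 0.000307), and no treated library of either genotype reached the lowest chow library. Socs2 was 10.1, 22.0, 17.1 and 18.8 CPM in chow controls and 3.76, 5.01, 5.32 and 4.62 CPM in treated controls. This change of -1.86 ± 0.26 (adjusted p = 1.17e-05) stood beside one of -1.54 ± 0.25 in FMRKO mice (8.86e-05), and Socs2 also fell on HFD by 0.81 ± 0.25 and 0.80 ± 0.25 (adjusted p of 0.0185 and 0.0225). Socs3 changed by -0.66 ± 0.33 (adjusted p = 0.117) and -0.60 ± 0.33 (0.154) under corticosterone and passed in none of the 4 comparisons with chow. Stat5a passed in none either, and Stat5b fell by 0.18 ± 0.07 and 0.27 ± 0.07 on HFD and, in FMRKO mice, by 0.23 ± 0.07 under corticosterone.

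Several genes that act on the binding proteins changed. Pappa, the protease that cleaves Igfbp4, fell on HFD by 1.79 ± 0.35 in controls (adjusted p = 0.000744) and under corticosterone by 1.14 ± 0.34 (0.0106). In FMRKO mice Pappa was -0.84 ± 0.34 (adjusted p = 0.0785) and -0.76 ± 0.34 (0.0762). Stc2, an inhibitor of PAPP-A, was 27.1, 18.8, 25.7 and 23.9 CPM in chow controls, 10.0, 12.8, 17.7 and 13.2 CPM on HFD and 59.0, 50.4, 52.2 and 50.3 CPM under corticosterone. It fell by 0.83 ± 0.20 on HFD (adjusted p = 0.00334) and rose by 1.15 ± 0.20 under corticosterone (0.000105), with -0.77 ± 0.20 and 1.07 ± 0.20 in FMRKO mice (0.00651 and 0.000251). Stc1, a relative with the same action, rose on HFD by 1.09 ± 0.39 and 1.13 ± 0.39 (adjusted p of 0.0383 and 0.0375). The proteases Adamts1 and Htra3 rose under corticosterone by 1.38 ± 0.18 and 1.31 ± 0.19 in controls (adjusted p of 7.84e-06 and 1.81e-05). In FMRKO mice Adamts1 rose by 1.65 ± 0.19 and Htra1 by 1.26 ± 0.14 (adjusted p of 1.44e-06 and 1.5e-06). Htra1 and Htra3 were higher under corticosterone in the other genotype too. Control libraries held Htra1 at 108 to 150 CPM on chow and at 224 to 287 CPM when treated. For Htra3 the FMRKO range was 225 to 377 CPM on chow, with 669 to 776 CPM when treated. HFD means were also above chow, for Htra3 684 against 354 (control) and 631 against 323 (FMRKO), and for Htra1 206 against 127 and 191 against 93.2. Igfals, the acid-labile subunit that joins IGF1 and Igfbp3 in blood, was 31.4, 19.6, 18.4 and 34.6 CPM in chow controls and 87.6, 116, 127 and 73.6 CPM on HFD, a rise of 1.96 ± 0.46 (adjusted p = 0.0029). In FMRKO mice Igfals rose on HFD by 1.99 ± 0.46 (0.00301), and it changed by 0.03 and 0.13 under corticosterone. Esm1, which shares an IGF binding domain, was called in corticosterone controls (-2.11 ± 0.84, adjusted p = 0.0491) on the strength of chow control replicate 2, at 4.13 CPM where the other 3 were 0.079 to 0.482.

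Downstream of the receptors, Irs1, a docking protein for both the insulin and IGF1 receptors, was 321, 214, 224 and 245 CPM in chow controls and 119, 104, 90.1 and 55.5 CPM on HFD. It fell there by 1.44 ± 0.24 (adjusted p = 0.000132) and by 0.87 ± 0.23 in FMRKO mice (0.00924), and under corticosterone by 0.61 ± 0.23 in each (0.0388 and 0.0391). Irs2 fell on HFD by 0.76 ± 0.20 and 0.79 ± 0.20 (adjusted p of 0.00775 and 0.00657) and passed in neither corticosterone comparison. Grb10, an inhibitory adaptor, fell on HFD in controls by 1.04 ± 0.14 (adjusted p = 1.28e-05) and rose under corticosterone in FMRKO mice by 0.38 ± 0.14 (0.0283). Its relative Grb14 rose in all 4 comparisons, by 1.69 ± 0.34 and 1.28 ± 0.34 on HFD (adjusted p of 0.000862 and 0.00793) and by 1.83 ± 0.34 and 1.49 ± 0.34 under corticosterone (0.000239 and 0.00168). The mRNA binding protein gene Igf2bp2 fell on HFD in controls by 1.14 ± 0.25 (adjusted p = 0.0018).

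**Figure D5:**
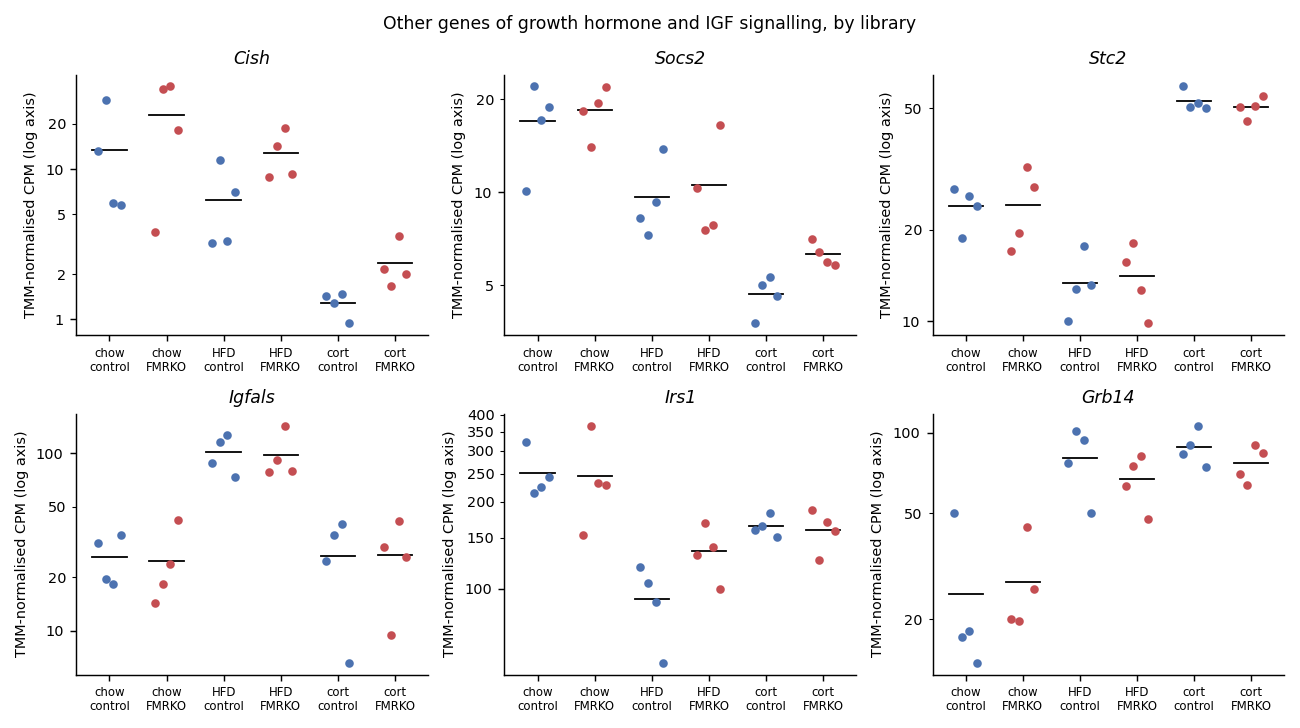
Panels plot 6 genes of the list in TMM-normalised CPM on a log axis, points being libraries (blue control, red FMRKO), bars group means and cort corticosterone. Cish and Socs2 are lowest in the corticosterone groups, Stc2 is highest there, Igfals is highest on HFD, Irs1 is lowest on HFD, and Grb14 is higher under both treatments than on chow.

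The genes whose pattern over the 24 libraries was most like each member were found by the root mean square difference of centred log2 CPM. Ghr was nearest to Car5b (0.16) and Fmo1 (0.18), and Igfbp4 to Hsd17b10 (0.15) and Dbt (0.16). Ghr and Igfbp4 lay 0.185 apart, slightly further than these neighbours, where their own spreads were 0.64 and 0.55. Igf1r was nearest to Tet2 (0.11) and Baz2b (0.12), and Igfbp7 to Ndst2 and Trio (0.16 each), and these members lay 0.19 from each other. Igf1 was nearest to Mxra7 and Cygb (0.22 each), Igfbp5 to Efemp1 (0.27) and Tmem100 (0.29), and Igfbp6 to Adgrd1 (0.19) and Dnm1 (0.22). For Igfbp3 the nearest were Slc7a8 (0.53) and Vdr (0.55) at a spread of 1.39, where the spread of Igfbp5 was 0.52. For Igfbp2 they were Clec4f (0.92) and Dnajc22 (1.00) at a spread of 1.95. The difference is not scaled to a gene's own spread, so its size does not rank members of unlike spread. All points of these patterns share their libraries, so the values describe likeness and carry no test.

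By position on GRCm38, Igf1 lies on chromosome 10 (87858265 to 87937042, plus strand), Igf1r on chromosome 7 (67952859 to 68226780, plus) and Ghr on chromosome 15 (3317760 to 3583492, minus). Igfbp2 (72824503 to 72852474, plus) and Igfbp5 (72857932 to 72874884, minus) are neighbours on chromosome 1. Igfbp3 (7206086 to 7213923, minus) and Igfbp4 (99041244 to 99054392, plus) lie far apart on chromosome 11. Igfbp6 lies on chromosome 15 (102144362 to 102149511, plus) and Igfbp7 on chromosome 5 (77349240 to 77408045, minus). All values are counts over the exons of these protein-coding genes, with untranslated regions included, so isoforms were not separated. The neighbours Igfbp2 and Igfbp5 differed in level by far more than they differed between groups, with Igfbp5 at 386 CPM or more in every library and Igfbp2 at 9.66 CPM or less.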

How the data were processed

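RNA of inguinal white adipose tissue was sequenced in 24 libraries, after ribosomal RNA depletion per the labels' protocols. The authors' raw counts per gene, per the submitters' processing notes, involved the tools STAR (2.5.1a), Subread and featureCounts (1.4.6p-5) and the build GRCm38. No strand setting or annotation release is stated. The deposited CPM and the deposited RPKM columns match values recomputed from the deposited counts and were not used further. Between 63.3% and 67.0% of counts from 1 to 20 were even, so a count may not be 1 independent fragment. Groups and replicate numbers came from the labels, which do not say whether each library came from its own mouse. P-values therefore reflect the spread between libraries, which may be technical. No within-group pair of libraries agreed within sampling noise (36 pairs, lowest chi-square per degree of freedom 12.6).

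Counts were fitted with edgeR 4.0.16 in R 4.3.3: filterByExpr by group (minimum count 10, leaving 19717 genes), TMM, estimateDisp, glmQLFit and glmQLFTest with a mean for each group over all 24 libraries (residual degrees of freedom 18, biological coefficient of variation 33.7%). P-values are two-sided and Benjamini-Hochberg adjusted over all genes tested, with a threshold of 0.05. Adjusted p-values are from this test unless DESeq2 (1.42.0) is named. The SE of a log2 change was derived from this test, as the absolute change divided by the square root of its F statistic. Alternatives were another filter, RLE size factors, DESeq2, only the groups compared, a replicate block, leaving out each library, leaving out marker-rich libraries, and marker covariates. The script was tested on simulated data. CPM in the text are TMM-normalised.

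The members and lists were chosen with earlier results of these data known. Named were all members, Nr3c2, the 3 list genes with the largest called change in each direction in each comparison with chow, 14 list genes whatever their result (Igf2, Igf2r, Insr, Igfbp1, Socs2, Socs3, Cish, Stat5a, Stat5b, Irs1, Irs2, Grb10, Pappa, Stc2), and 2 genes of nearest pattern per member. Same-numbered HFD control and HFD FMRKO libraries deviated together (r from 0.20 to 0.72 in 4 pairs, each highest with its own number). Numbers were therefore taken to pair them there. Replicates 1 and 4 were lymph node rich in both HFD groups, so pairing and shared lymph node content cannot be told apart. No other groups were paired by this check. The replicate block nonetheless used the numbers in all groups, within conditions for FMRKO tests and within genotypes for treatment tests. Lymph node rich and muscle rich libraries were those whose mean log2 CPM over the marker list exceeded 3. Promoters are RefSeq's, on GRCm38.p6.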

Additional observations from a re-analysis of the deposited data

Results flagged for a closer look

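In 3 of the 54 groups of 4 values tested (9 members in 6 groups), 1 library stood far from the other 3, and chance gives such a gap in about 1 group in 20. Igf1r was 37.2 CPM in HFD control replicate 4, where the other 3 were 28.0 to 28.4 CPM. Igfbp4 was 455 CPM in the same library, where the other 3 were 654 to 657 CPM. That library is among those rich in lymphocyte markers. Igfbp2 was 9.27 CPM in chow FMRKO replicate 5, the library richest in skeletal muscle markers, where the other 3 were 0.0779 to 1.29 CPM.

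For Igfbp7 the FMRKO effect differed between corticosterone and chow in DESeq2 by 0.72 (log2, adjusted p = 0.0229), with FMRKO libraries below all controls on chow and above all controls under corticosterone. In edgeR the same difference was 0.76 with an adjusted p of 0.418. It was 0.55 (0.234) without the lymph node rich libraries, which include chow FMRKO replicates 1 and 3.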

How the results depend on the processing

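The 12 comparisons of 9 members were refitted in 34 other settings, of which 24 left out 1 library each and 1, leaving out the lymph node rich and muscle rich libraries together, was chosen after seeing the data. Of the 108 member values, 29 passed the threshold, 20 of them in every setting that gave a value and 9 not in every one. Of the 79 that did not pass, 9 passed in some setting. Among the 29 that passed, the only one to change sign was Igfbp2 in FMRKO mice, corticosterone against chow. It was 1.35 without the lymph node rich and muscle rich libraries, which leaves a single chow FMRKO library. Of the 79 that did not pass, 41 changed sign in some setting.

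For members called, HFD against chow in controls gave 5 to 6 with 1 library left out and 2 without both sets of libraries. In FMRKO mice it gave 1 to 2 with 1 library left out, and 2 with a minimum count of 50, with DESeq2, without the lymph node rich libraries and with marker covariates. Corticosterone against chow gave 7 in controls in every setting, and in FMRKO mice 5 to 7 with 1 library left out and 3 without both sets. Corticosterone against HFD in controls gave 4 to 6 with 1 library left out and 3 without the muscle rich libraries or without both sets, and 7 with DESeq2, which added Igfbp2 and Igfbp5. DESeq2 gave 1 for FMRKO against control on chow and 1 for the difference of the FMRKO effect between corticosterone and chow, where edgeR gave 0. The cause of these shifts was not tested, and leaving libraries out also leaves fewer of them in the fit.

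With the replicate block, HFD against chow in controls gave 3428 genes called of all tested, where the fit without it gave 5758. For treatments, the numbers used by the block were not found to pair libraries. Among members the replicate block ended the calls of Ghr there (-0.60), of Igfbp2 (-0.93) and Igfbp7 (-0.26) in FMRKO mice under corticosterone against chow, and of Igf1r in corticosterone against HFD in controls (-0.29). It changed no other member call. Counts over all genes with only the compared groups in the fit were 3458 (HFD, controls) and 3202 against 4813 (HFD, FMRKO), and without both sets of libraries 3836, 1734, 2892 against 8102 (corticosterone, FMRKO) and 1173 against 4904 (corticosterone against HFD, controls). The last count was 3200 without the lymph node rich libraries and 3063 with covariates. FMRKO against control gave 71, 12, 6 and 34 genes in DESeq2 (chow, HFD, corticosterone, average) and 2, 2, 1 and 7 in edgeR, with 19 on chow without chow control replicate 1. With only the compared groups fitted, Igfbp2 did not pass the count filter in 4 comparisons, all with corticosterone, and the average over conditions has no value. The precision of Igfbp2 is limited by its low counts, which also varied widely between libraries. With the replicate block FMRKO against control on HFD gave 6 genes of all tested, where the fit without it gave 2.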
